A study of Mus musculus with 8 samples.

Results

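The testis-specific serine kinases are a small family of protein kinases, encoded by Tssk1 to Tssk6, and were followed together with Tsks, the gene of their substrate protein TSKS. The members were chosen by gene symbol in the deposited gene table. All 7 symbols were found, each with 1 gene model, among 56324 models in all. Each member passed the filter on low values, set at 10 normalized counts or more in 4 or more libraries.

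The kinases belong to the branch of the kinome that also holds AMPK and the MARK kinases, and in the mouse they are known for RNA and protein that appear late in male germ cell development, after meiosis. TSSK1 and TSSK2 phosphorylate TSKS, which lies at the centrioles and in the ring that the chromatoid body forms at the base of the growing flagellum. Loss of Tssk1 and Tssk2 together, of Tssk3 or of Tssk6 is known to make male mice infertile, and TSSK6 acts in the condensation of sperm chromatin. TSSK4 phosphorylates the outer dense fibre protein ODF2 in the sperm tail.

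RNA was sequenced from purified germ cells of C57BL/6 mice aged 12 weeks, in 4 libraries of Sam68 -/- spermatids and 4 libraries of Sam68 -/- spermatocytes. Spermatocytes are the cells in meiosis and spermatids the haploid cells they give rise to. The groups share strain, age and genotype and differ in cell type, so the comparison made here is that of spermatids against spermatocytes under 1 genotype. Cell fractions were separated by sedimentation at unit gravity (Sta-put), which sorts cells by size and does not use a marker. Nothing in the labels states that each library had its own animals. The p-values therefore rest on the spread among these libraries, and that spread may be technical.

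Read totals lay between 60673309 and 93975960 in spermatid libraries and between 49000266 and 78060212 in spermatocyte libraries. Khdrbs1, the gene of Sam68, had 651, 625, 854 and 1129 normalized counts in spermatid libraries 1 to 4, against 3808, 3421, 4319 and 4985 in spermatocyte libraries 1 to 4. No other genotype was analysed here, so these values do not check the genotype label. All 12 markers of spermatids and the sperm nucleus were called higher in spermatids. Of 10 markers of pachytene spermatocytes 4 were called lower in spermatids, 1 was called higher and 5 were not called. Their log2 fold changes ran from -5.02 (Piwil1) to 2.41 (Pgk2). Sycp1, a protein of the synaptonemal complex, was not called (log2 fold change 0.10). It averaged 11071 normalized counts in spermatids and 14935 in spermatocytes, where libraries 1 to 4 had 12680, 18717, 26690 and 1653. The Sertoli cell markers were lower in spermatids in 10 of 10 cases, and their summed level was 2970 to 6832 in spermatid libraries and 31895 to 151589 in spermatocyte libraries. The 9 markers of macrophages and blood, of which 7 were tested and called higher in spermatids, summed to 2824 to 5733 in spermatid libraries and 122 to 180 in spermatocyte libraries. Spermatogonia markers summed to 2302 to 5077 in spermatid libraries and 872 to 2008 in spermatocyte libraries. Leydig cell markers summed to 185 to 1099 in spermatid libraries and 3331 to 6997 in spermatocyte libraries. Markers of peritubular and endothelial cells summed to 1677 to 2375 in spermatid libraries and 553 to 1070 in spermatocyte libraries. Of these markers 5 were called higher in spermatids, 1 lower (Pecam1, log2 fold change -1.52) and 1 was not called. The haemoglobin gene Hba-a1 had 10.7 normalized counts in spermatid library 1 and 0 in all other libraries. Hbb-bs had 2.69 in spermatid library 1 and 0 in the other spermatid libraries, against 7.25, 7.85, 13.4 and 9.13 in spermatocyte libraries 1 to 4. Neither was among the 7 tested genes, which hold most of the sum in spermatid libraries. The part of these other cells in the results below was not tested.

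The members are scattered over 6 chromosomes, and Tssk1 and Tssk2 lie next to each other. Coordinates are of mm10 as deposited, and exons and strand are from GENCODE M21, which uses the same build. Tssk1 spans 17894202 to 17897922 and Tssk2 17898637 to 17900028 of chromosome 16, both on the plus strand, with 714 bases between the models. Tssk3 spans 129489008 to 129490771 of chromosome 4 on the minus strand. Tssk4 spans 55650182 to 55652539 of chromosome 14 on the plus strand, and Tssk5 76371954 to 76374941 of chromosome 15 on the minus strand. Tssk6 spans 69902184 to 69903516 of chromosome 8 and Tsks 44943240 to 44958035 of chromosome 7, both on the plus strand. The longest coding transcripts of Tssk1, Tssk2 and Tssk6 each consist of 1 exon. That of Tssk3 has 2 exons, that of Tssk4 has 3, that of Tssk5 has 8 and that of Tsks has 11. Tssk1 lies within the GENCODE gene Dgcr2 of the opposite strand. Tssk6 overlaps 375 bases of Ndufa13 and 529 bases of Yjefn3, both on the opposite strand. The strand setting of the counting is not given in the sources used here, so reads of these opposite genes may be mixed in.

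Promoter windows of RefSeq (GRCm38.p6), from 250 bases before to 50 after the start, were given for 6 members, all but Tssk5. Those of Tssk1 and Tssk2 are shown because the neighbouring genes share a stretch of sequence just before their starts. A local alignment of the windows (1 for a match, -1 for a mismatch, -3 to open and -1 to extend a gap) scored 26 for this pair, over 52 columns of which 78.8% were identical. The other 14 pairs of members scored 9 to 14. The aligned stretch starts 53 bases and ends 2 bases before the Tssk1 start, at chr16:17894150-17894201, and starts 63 bases and ends 15 bases before the Tssk2 start, at chr16:17898574-17898622. Both are given on the plus strand from 5′ to 3′, with letters in capitals where the aligned bases are identical.
Tssk1: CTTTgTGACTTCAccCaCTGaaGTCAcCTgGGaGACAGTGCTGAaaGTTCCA
Tssk2: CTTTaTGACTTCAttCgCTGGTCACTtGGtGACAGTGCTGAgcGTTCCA

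The 250 bases before each start give the surroundings of the shared stretch, which is in capitals as above. They lie at chr16:17893953-17894202 for Tssk1 and chr16:17898387-17898636 for Tssk2, on the plus strand.
Tssk1: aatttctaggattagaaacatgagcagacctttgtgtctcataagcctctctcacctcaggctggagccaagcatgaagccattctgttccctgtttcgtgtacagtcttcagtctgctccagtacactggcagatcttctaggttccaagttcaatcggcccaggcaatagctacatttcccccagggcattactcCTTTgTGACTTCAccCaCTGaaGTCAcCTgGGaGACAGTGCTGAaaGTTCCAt
Tssk2: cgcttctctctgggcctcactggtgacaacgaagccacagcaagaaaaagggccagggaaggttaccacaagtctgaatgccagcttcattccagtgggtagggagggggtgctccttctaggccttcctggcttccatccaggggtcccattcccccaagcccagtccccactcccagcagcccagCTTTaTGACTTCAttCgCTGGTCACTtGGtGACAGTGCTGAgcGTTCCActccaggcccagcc

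Motifs of factors known from spermatids were searched in the windows on both strands. The full cAMP response element TGACGTCA, its shorter form TGACGT, the RFX motif GTTGCC and the TATA box TATAAA were each found in 0 of the 6 windows of members. Of all 32851 windows 1.79% held the full element, 7.51% its shorter form (which the full element contains), 12.5% the RFX motif and 13.6% the TATA box. These counts say only that the letters are not in these windows.

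Every member of the family was far more abundant in spermatids, by about 21-fold (Tssk6) to 41-fold (Tssk5). All 7 members were called higher, at an adjusted p below 0.05 and a log2 fold change of at least 1 in limma, against 32.5% of the 28735 models tested (62.3% were called in either direction). In all 7 the lowest spermatid library stood above the highest spermatocyte library, as it did in 34.2% of tested models, while the reverse held in 32.2%. All 7 were higher in spermatids by more than 4 on the log2 scale, and 12.5% of tested models were higher by at least 4. The median log2 fold change was 4.72 over the members and -0.01 over all tested models. In RNA of whole fractions, fewer cells that express a gene and less of its RNA per cell cannot be told apart.

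Tssk1 and Tssk2 were the most abundant kinases by count. Tssk1 had 42848, 50699, 61597 and 53724 normalized counts in spermatid libraries 1 to 4, against 2220, 2016, 1820 and 2539 in spermatocyte libraries 1 to 4. The lowest spermatid value was 16.9 times the highest spermatocyte value. The means were 52217 ± 7753 in spermatids and 2149 ± 307 in spermatocytes (SD, n = 4 each; change on the log2 scale 4.60 ± 0.18 SE, adjusted p = 1.1e-09 by limma). Tssk2, its neighbour, which phosphorylates the same substrate, had 41344, 43597, 56925 and 50131 normalized counts in spermatids, against 1730, 1343, 1703 and 1784 in spermatocytes. The groups were again far apart, by a factor of 23.2 between their nearest libraries. Tssk2 averaged 47999 ± 7021 in spermatids and 1640 ± 201 in spermatocytes (SD, n = 4 each; change on the log2 scale 4.87 ± 0.17 SE, adjusted p = 9.5e-10 by limma). Among tested models Tssk1 ranked 243 in spermatids and 4688 in spermatocytes, and Tssk2 ranked 282 in spermatids and 5472 in spermatocytes. Both genes together made up 70.0% to 72.9% of the summed counts of the 6 kinases in spermatid libraries and 68.0% to 74.3% in spermatocyte libraries.

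Tsks, the substrate gene, stood at nearly the level of its kinases. It had 39162, 41096, 50548 and 47468 normalized counts in spermatid libraries 1 to 4, against 1854, 1446, 1768 and 1698 in spermatocyte libraries 1 to 4. Its order among spermatid libraries, with library 3 highest and library 1 lowest, was shared by Tssk1, Tssk2, Tssk3 and the summed spermatid markers. The means were 44569 ± 5337 in spermatids and 1691 ± 176 in spermatocytes (SD, n = 4 each; change on the log2 scale 4.72 ± 0.16 SE, adjusted p = 9.5e-10 by limma). The log2 ratio of Tssk2 to Tsks was 0.10 ± 0.05 in spermatids and -0.05 ± 0.08 in spermatocytes (SD, n = 4 each). That of Tssk1 to Tsks was 0.22 ± 0.08 in spermatids and 0.34 ± 0.24 in spermatocytes. These ratios are of counts and not per length.

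Tssk3, a kinase that spermatids need for fertility in the mouse, had 10898, 13536, 15270 and 14545 normalized counts in spermatid libraries 1 to 4, against 457, 438, 613 and 554 in spermatocyte libraries 1 to 4. Its means were 13563 ± 1913 in spermatids and 515 ± 82.5 in spermatocytes (SD, n = 4 each; change on the log2 scale 4.72 ± 0.18 SE, adjusted p = 1.1e-09 by limma). All spermatid libraries lay at least 17.8 times above every spermatocyte library. Tssk4, the ODF2 kinase, had 10250, 12752, 13694 and 12649 normalized counts in spermatids, against 295, 406, 339 and 396 in spermatocytes. It averaged 12336 ± 1468 in spermatids and 359 ± 52.0 in spermatocytes (SD, n = 4 each; change on the log2 scale 5.10 ± 0.18 SE, adjusted p = 9.5e-10 by limma). Its nearest libraries were 25.2-fold apart.

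Tssk5 was the least abundant member in every library and had the largest fold change in the family. It had 3074, 4312, 4456 and 3797 normalized counts in spermatid libraries 1 to 4, against 91.9, 107, 101 and 75.4 in spermatocyte libraries 1 to 4. The nearest libraries of the groups were 28.7-fold apart. Tssk5 averaged 3910 ± 625 in spermatids and 93.7 ± 13.7 in spermatocytes (SD, n = 4 each; change on the log2 scale 5.36 ± 0.21 SE, adjusted p = 1.2e-09 by limma). Even its lowest value rested on 66 reads, above the floor of 3 reads. Tssk6, the kinase tied to chromatin condensation, had the smallest fold change in the family. It had 11783, 8414, 10573 and 9295 normalized counts in spermatids, against 531, 340, 604 and 470 in spermatocytes. It averaged 10016 ± 1474 in spermatids and 486 ± 112 in spermatocytes (SD, n = 4 each; change on the log2 scale 4.38 ± 0.21 SE, adjusted p = 3.8e-09 by limma). Ndufa13, a subunit of respiratory complex I whose model overlaps that of Tssk6, changed by 0.70 ± 0.17 SE on the log2 scale, under the threshold of 1 (adjusted p = 0.0025 by limma).

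**Figure D1:**
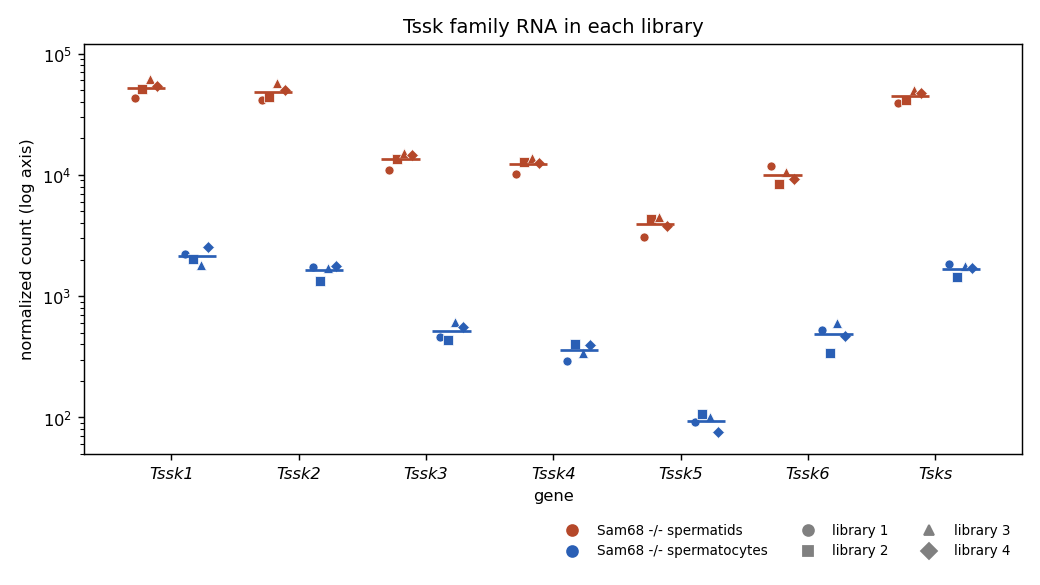
Normalized counts of the 7 members (log axis) in 4 spermatid libraries (left in each pair) and 4 spermatocyte libraries (right), with 1 marker shape for each library number and a line at the group mean; equal numbers do not pair libraries. For every gene the spermatid libraries lie above all spermatocyte libraries, from 13.9-fold (Tssk6) to 28.7-fold (Tssk5) between the nearest libraries.

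Per kilobase of the longest coding GENCODE transcript, the order of the levels was the same in both cell types: Tssk2, Tsks, Tssk1, Tssk3, Tssk6, Tssk4 and Tssk5. In spermatids the levels in normalized counts per kilobase were 34581 ± 5058 for Tssk2, 24183 ± 2896 for Tsks and 14113 ± 2095 for Tssk1 (SD, n = 4 each). They were 10596 ± 1495 for Tssk3, 7503 ± 1104 for Tssk6, 7317 ± 871 for Tssk4 and 2576 ± 412 for Tssk5. In spermatocytes Tssk2 stood at 1182 ± 145 and Tssk5 at 61.7 ± 9.03 normalized counts per kilobase. In spermatids Tssk6 and Tssk4 overlapped, at 6303 to 8826 for Tssk6 and 6079 to 8122 for Tssk4. In spermatocytes Tssk3 and Tssk6 overlapped, at 342 to 479 for Tssk3 and 254 to 452 for Tssk6. The place of Tssk1 depends on the length taken. GENCODE gives it a transcript of 3700 bases and RefSeq a gene of 1451 bases, and with the RefSeq length it had 35987 ± 5343 per kilobase in spermatids, overlapping Tssk2.

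Members varied together among spermatid libraries, with Tssk6 apart. Spermatid library 1 held the lowest value of 6 members and the highest of Tssk6, which lay 0.25 above its spermatid mean there on the log2 scale, against -0.33 to -0.18 for the others. Among spermatid libraries, library 1 also had the lowest sum of spermatid markers (831479). It had the highest sums for spermatogonia (5077), Sertoli cells (6832), Leydig cells (1099), peritubular and endothelial cells (2375), and macrophages and blood (5733). The part of these cells in the order of the libraries was not tested. As a share of all normalized counts the 7 members made up 0.233%, 0.199%, 0.234% and 0.225% in spermatid libraries 1 to 4, against 0.0114%, 0.00937%, 0.0127% and 0.0121% in spermatocyte libraries 1 to 4. By this measure spermatid library 2, and not library 1, was the lowest. The normalized total of spermatid library 1 was 68420909, against 87822233, 91084053 and 85110876 in spermatid libraries 2 to 4.

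Whether members changed unequally was asked with the ratio of each pair within a library, which does not depend on how the library was scaled. Of 21 pairs, 0 had an adjusted p below 0.05 by the exact two-sided permutation test with Benjamini-Hochberg adjustment over the pairs. At the unadjusted p of 0.0286, the smallest that 4 libraries against 4 allow, there were 5 pairs, each with an adjusted p of 0.12. Of these pairs 3 hold Tssk5. The log2 ratio of Tssk5 to Tsks was -3.52 ± 0.19 in spermatids and -4.17 ± 0.32 in spermatocytes (SD, n = 4 each), a difference of 0.65. The log2 ratio of Tssk1 to Tssk5 was 3.74 ± 0.13 in spermatids and 4.51 ± 0.41 in spermatocytes, and that of Tssk3 to Tssk5 was 1.80 ± 0.12 in spermatids and 2.44 ± 0.36 in spermatocytes. The other 2 pairs were Tssk1 with Tssk4, with a difference of -0.50, and Tssk2 with Tsks, with a difference of 0.15. The largest difference was that of Tssk5 against Tssk6 at 0.98, whose libraries overlapped (exact permutation p = 0.0571, adjusted p = 0.171). For the neighbours Tssk1 and Tssk2 the difference was -0.27 (exact permutation p = 0.114, adjusted p = 0.171). With 4 libraries a group, the adjusted p can pass 0.05 only where many of the pairs reach the smallest p. Unequal changes were not detected after adjustment, which does not show that the members changed alike.

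**Figure D2:**
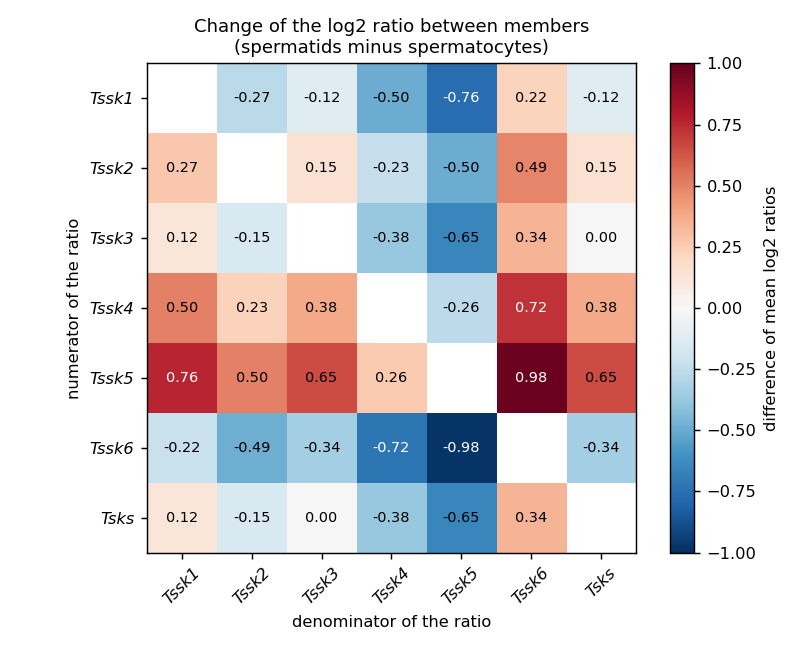
Difference of the mean log2 ratio between members, spermatids minus spermatocytes, with the numerator in rows and the denominator in columns (n = 4 libraries each). The row of Tssk5 is positive throughout, up to 0.98 against Tssk6, and the row of Tssk6 is negative throughout. These signs follow from the largest (Tssk5) and smallest (Tssk6) fold change in the family. Of 21 pairs 0 passed the exact permutation test after adjustment.

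The low level in spermatocytes can be read beside that of genes known for spermatids. The spermatocyte mean was 2.40% (Tssk5) to 4.85% (Tssk6) of the spermatid mean over the 7 members. Over the 12 markers of spermatids it was 2.16% to 6.18%, with a median of 3.83%. Prm1, a protamine, averaged 57681 normalized counts in spermatids and 3136 in spermatocytes (5.44%), and Acrv1, an acrosomal protein, averaged 26626 in spermatids and 634 in spermatocytes (2.38%). The members' shares thus lay within the range of these markers. Such shares were not particular to spermatid markers. Over the 9 markers of macrophages and blood the median was 3.65%, with a range of 0% to 1402%. The spermatid markers summed to 831479 to 1089612 in spermatid libraries and 32300 to 49604 in spermatocyte libraries, and none was at 0 in any library. Whether the reads in spermatocyte libraries came from spermatids in those fractions was not tested.

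**Figure D3:**
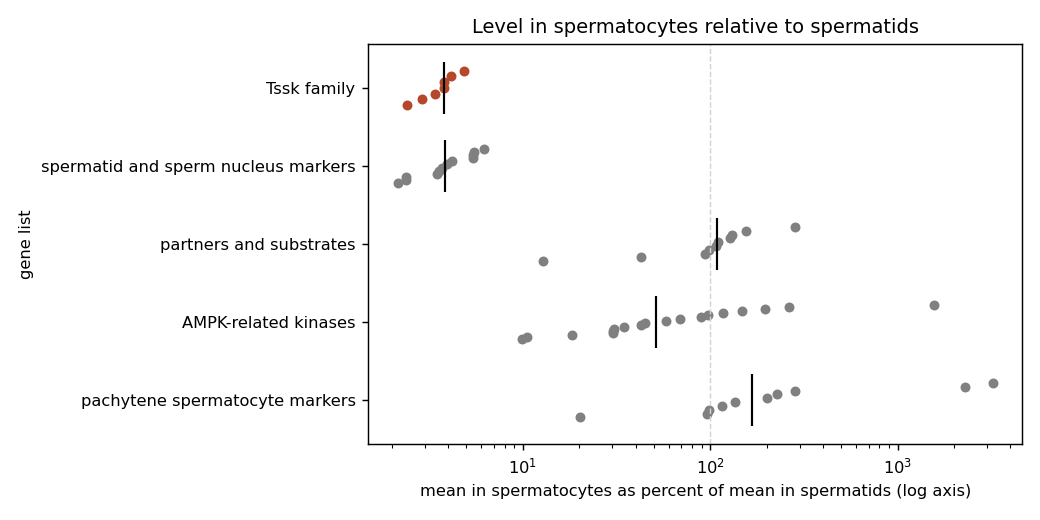
Mean in spermatocytes as a percentage of the mean in spermatids (log axis), 1 point per gene, with a line at the median of each list. The 7 family members lie at 2.40% to 4.85%, inside the 2.16% to 6.18% of the spermatid markers, while the medians are 108% for partners and substrates and 168% for pachytene spermatocyte markers.

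Genes next to the members were followed to see whether whole loci moved. Of 13 neighbouring or overlapping models with a symbol, 6 were called higher, 0 lower and 7 were not called (46.2% higher, against 32.5% of all tested models). Their log2 fold changes ran from -0.74 to 5.05, with a median of 0.82. The largest was that of Fam229a, a gene named for its sequence family, which lies head to head with Tssk3. Fam229a had 14525, 14604, 19696 and 14711 normalized counts in spermatid libraries 1 to 4, against 554, 491, 532 and 352 in spermatocyte libraries 1 to 4. It rose by 5.05 ± 0.19 SE on the log2 scale (limma adjusted p = 1.1e-09), beside 4.72 for Tssk3. Its model starts 418 bases from that of Tssk3 on the opposite strand. The 250 bases before the Tssk3 start, on the minus strand at chr4:129490771-129491020 of GRCm38.p6, lie between the starts of the 2 deposited models and are shown for that reason, in lower case throughout. The GENCODE model of Tssk3 reaches to 129491022 and so covers them.
Tssk3: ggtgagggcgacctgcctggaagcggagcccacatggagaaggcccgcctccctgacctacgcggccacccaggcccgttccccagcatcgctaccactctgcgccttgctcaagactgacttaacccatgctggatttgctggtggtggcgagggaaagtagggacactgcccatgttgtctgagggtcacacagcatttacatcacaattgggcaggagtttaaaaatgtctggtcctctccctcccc

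Around Tssk1 and Tssk2 both flanking models were called higher. The joint model of Car15 and Dgcr2 rose by 3.22 ± 0.17 SE on the log2 scale and Dgcr14, a splicing-related gene, by 1.70 ± 0.18 SE (limma adjusted p = 1.1e-08 and 2.7e-06). Gatad2a, a subunit of the NuRD complex, lies 3552 bases from Tssk6 and rose by 1.92. Ap2a1, a clathrin adaptor subunit, lies 13749 bases from Tsks and rose by 2.02. Bsdc1, on the other side of Tssk3, rose by 1.32. By contrast the models on both sides of Tssk4 and Tssk5 were not called. Tm9sf1 (log2 fold change 0.22) and Mdp1 (-0.73) flank Tssk4, at 6372 and 5339 bases. Fam203a (-0.12) and Mroh1 (-0.18) flank Tssk5, at 542 and 5570 bases. Cilp2 (-0.74, at 14791 bases from Tssk6) and Cpt1c (0.82, at 448 bases from Tsks) were below the fold threshold of 1.

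**Figure D4:**
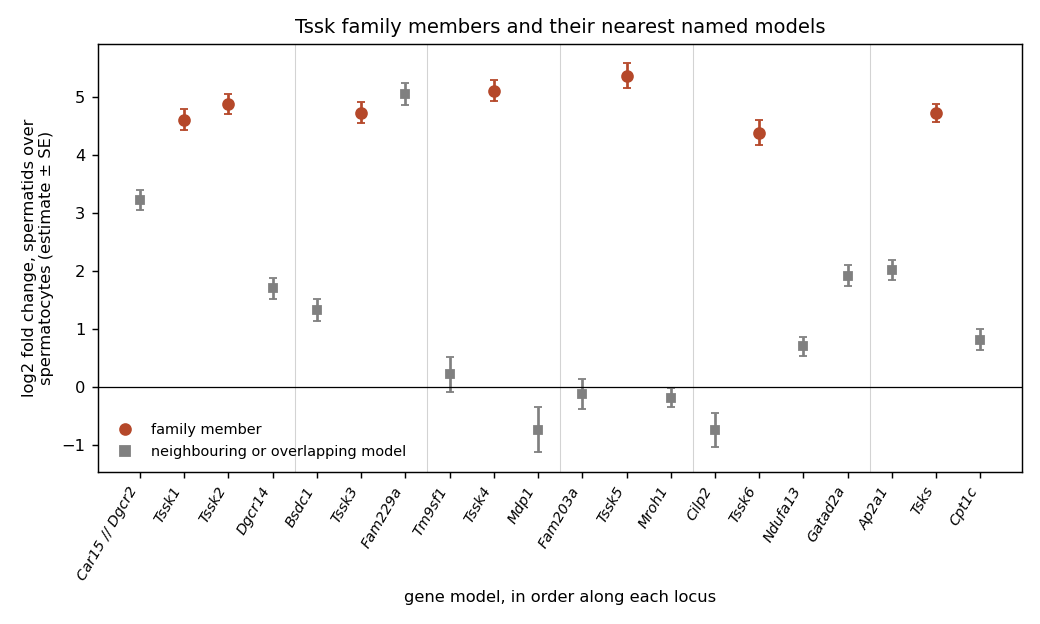
Log2 fold change of spermatids over spermatocytes with its SE (limma, n = 4 libraries each) for the members and for the nearest named models along each locus. The members lie between 4.38 and 5.36, and of the neighbours Fam229a reaches 5.05 while those of Tssk4 and Tssk5 lie between -0.73 and 0.22.

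Known partners and substrates of the kinases did not share the size of their change. Of 10 tested genes 2 were called higher, 1 lower and 7 were not called, with a median log2 fold change of -0.10, against 32.5% higher, 29.8% lower and a median of -0.01 over all tested models. Pdpk1, the kinase PDK1 that can activate TSSK3 in vitro, averaged 12902 normalized counts in spermatids and 1658 in spermatocytes, and rose by 2.94 on the log2 scale (limma adjusted p = 6.7e-08). Odf2, the tail protein that TSSK4 phosphorylates, had the highest normalized count of the list over both cell types together, though Hspa2 was above it in spermatocytes (200076). A model of Odf2 had 311957, 433424, 465242 and 438384 normalized counts in spermatid libraries 1 to 4, against 181782, 173685, 112797 and 236020 in spermatocyte libraries 1 to 4. It rose by 1.26 (limma adjusted p = 3.6e-04) with groups that did not overlap, and 2 further models of Odf2 were not used. H2afx, the histone variant whose phosphorylated form marks DNA breaks, averaged 1756 in spermatids and 5001 in spermatocytes and fell by 1.57 on the log2 scale (limma adjusted p = 7.1e-05). Among the genes not called were the chaperone genes Hsp90aa1 (-0.39) and Hspa2 (0.01), the phosphatase gene Ppp1cc (-0.06) and the axonemal protein gene Spag16 (0.11). Tsacc, a co-chaperone of TSSK6, was counted in a model joined with Rhbg that was not called, since its log2 fold change of 0.55 was under the threshold of 1 (limma adjusted p = 0.02). That model had 10681, 13766, 14518 and 13589 normalized counts in spermatid libraries 1 to 4, against 9088, 8973, 6741 and 11358 in spermatocyte libraries 1 to 4.

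Of 18 AMPK-related kinases tested, the relatives of the family, 9 were called higher, 2 lower and 7 were not called, against 32.5% higher and 29.8% lower over all tested models. Their median log2 fold change was 1.00, beside -0.01 over all tested models. Mark2, a microtubule affinity regulating kinase, averaged 514 normalized counts in spermatids and 8019 in spermatocytes and fell by 3.96 on the log2 scale (limma adjusted p = 2.4e-09). Prkaa2, a catalytic subunit of AMPK, averaged 172 in spermatids and 17.0 in spermatocytes and rose by 3.41 (limma adjusted p = 1.1e-05). Nim1k averaged 423 in spermatids and 44.9 in spermatocytes and rose by 3.29. None of the 18 reached the smallest change in the family, 4.38. Stk11, the LKB1 kinase that activates AMPK, had the highest normalized count of the list over both cell types together, though Sik3 was above it in spermatids (12322). Stk11 averaged 12263 in spermatids and 10998 in spermatocytes and was not called (log2 fold change 0.16, limma adjusted p = 0.45).

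Of 8 subunits of AMPK and partners of LKB1, 2 were called higher, 2 lower and 4 were not called, with a median log2 fold change of 0.01. These counts lay near the 32.5% higher and 29.8% lower over all tested models. Prkag3, a regulatory subunit, had 40.3, 24.3, 30.0 and 37.0 normalized counts in spermatids, against 0, 3.93, 3.35 and 0 in spermatocytes, where 2 libraries were at 0, so the size of its fitted change (3.95) depends on the added pseudocount. Prkag1, another regulatory subunit, fell by 1.65 and Cab39l, a scaffold of LKB1, rose by 1.57. Prkag2, with the highest normalized count of the list in both cell types, averaged 16312 in spermatids and 12426 in spermatocytes and was not called.

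The profile of the family was shared by other genes. Likeness was measured as the Euclidean distance between log2 profiles over the 8 libraries, each centred on its own mean, among 13052 named models with a mean of at least 100 normalized counts in the higher group. Among the 5 models nearest to the mean profile of the members were Rab3il1 (0.20), a Rab exchange factor, BC049762 (0.22), Creb3l4 (0.23), a membrane-bound transcription factor, and Aif1 (0.23). The members themselves lay at 0.23 (Tssk2) to 0.94 (Tssk5) from their own mean, and 494 of the 13052 models (3.78%) lay within 0.94. Creb3l4 had 30232, 34208, 42528 and 39783 normalized counts in spermatid libraries 1 to 4 and averaged 3.64% of its spermatid mean in spermatocytes. Nearest to single members were Kcnk5 for Tssk1 (0.25), Gpd2 for Tssk2 (0.14), Acsl1 for Tssk3 (0.16), Gpx6 for Tssk4 (0.18), Agpat9 for Tssk5 (0.15), Fam134b for Tssk6 (0.46) and Akap1 for Tsks (0.20). The nearest gene to Tssk6 was thus farther away than that of any other member.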

How the data were processed

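The deposited signal is a normalized read count: whole reads per gene model, scaled by the authors with 1 size factor for each library. The submitters' processing notes name STAR 2.4.0, SAMtools, Picard, FastQC, DESeq and mm10. How reads were counted, and whether by strand, is not given in the sources used here. Per the labels' protocols, RNA was treated with DNase and stranded mRNA libraries were made. Columns were mapped to libraries by their titles, and 8 further columns of per-sample values were not used. Replicate numbers follow the order of the records.

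In each library 100% of values above 0 were whole multiples of 1 step, within 10% of it, which gave back whole reads. The floor of 3 reads was 2.42 to 4.50 normalized counts, and it covers counting error only. No pair of replicates agreed within counting noise (chi-square per degree of freedom at least 12.2).

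Spermatids were compared with spermatocytes on log2(normalized count + 1) with limma 3.58.1 (trend and robust moderation, R 4.3.3, no covariate) over the 28735 models with at least 10 in at least 4 libraries. Calls needed a Benjamini-Hochberg adjusted p below 0.05 over all tested models and a log2 fold change of 1 or more in either direction. The fit was tested on simulated counts in which few models changed, unlike these data, where 62.3% of tested models were called. The 21 pairs of members were compared by an exact permutation test whose statistic was the absolute difference of the group means of the log2 ratio. Transcript lengths and GC content are those of the longest coding transcript in GENCODE M21. Of 99 listed genes 96 were matched, 2 of them by a synonym, and Tsacc, Strada and Insl3 were in models joined with another gene, which stayed out of the lists. Of several models under 1 symbol, that of the highest mean stood for the gene.

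Named were the members, Khdrbs1, the 3 called genes with the largest change and the most abundant gene of each pathway list, the nearest named models on each side of a member, and the genes of nearest profile, of which 1 is not reported here; any other gene was picked with its values known. The members, lists and tests were chosen with earlier results of these data known. Alternatives were pseudocounts of 0.5 and 8, a filter of 50 or none, other scalings (equal totals, TMM, median of ratios, quantile), limma without trend and robust moderation, edgeR 4.0.16 quasi-likelihood and DESeq2 1.42.0 tests on the recovered reads, a correction for GC content, and left-out libraries.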

Additional observations from a re-analysis of the deposited data

How the results depend on the processing

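All 7 members stayed called higher under each of the 22 alternatives run, and 154 of 154 values kept their direction and their call. The log2 fold changes of the members ran from 3.95 to 5.82, lowest for Tssk6 with equal totals (Tssk6 reported at 4.38) and highest for Tssk5 with the GC correction (Tssk5 reported at 5.36). With 1 library left out they ran from 4.22 for Tssk6 to 5.48 for Tssk5, and without spermatocyte libraries 3 and 4, which had the most Sertoli cell markers, from 4.54 to 5.27. The edgeR test on recovered reads gave 4.39 to 5.39 with 17899 models called and DESeq2 4.37 to 5.39 with 17889 models called, against 17896 with limma. The number of models called was 9606 over the 17045 models with a GC content, an alternative chosen after seeing the data, and 9658 over these with the GC correction, since fewer models were tested. Higher calls made up 52.2% of all calls as reported, 62.6% over the models with a GC content and 66.2% with the correction, but 42.6% with equal totals, 44.5% with quantile normalization and 45.5% with no filter, where lower calls were the majority. Over all tested models the median change, -0.01 as reported, was -0.44 with equal totals and -0.36 with quantile normalization, and was 0.25 and 0.38 over the models with a GC content without and with the correction, so the members' values are to be read against these shifts. The count of 0 pairs passing after adjustment also held with pseudocounts of 0.5 and 8, the GC correction and each left-out library. The pairs were not tested under the other scalings, filters and tests. Without spermatocyte libraries 3 and 4 the exact test cannot pass, so that count says nothing. No paired analysis was possible because the labels give no replicate numbers and do not pair libraries of both cell types. At least 66 reads stood behind each value of a member, so depth limits the members little.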
